A study of Homo sapiens with 6 samples.

Results

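The semaphorins, netrins and SLIT proteins are guidance cues, and the plexins, neuropilins, ROBO proteins and netrin receptors are the molecules that read them. Among the protein-coding rows of the counts table, 44 genes of 58735 rows carried a GENCODE 29 symbol of these families. The rule read symbols and no measured value, but it was chosen with earlier results of these data known. The 44 genes were 7 secreted class 3 semaphorins (SEMA3A to SEMA3G), 13 membrane semaphorins of classes 4 to 7, 9 plexins, the 2 neuropilins, 3 SLIT ligands, 4 ROBO receptors, 2 netrins (NTN1 and NTN4) and 4 netrin receptors (DCC, NEO1, UNC5B and UNC5C). Another 5 non-coding rows with a semaphorin symbol were antisense or long intergenic RNA genes and were not members.

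RNA was sequenced from H9 (WA09) cells, an established line of human embryonic stem cells (hESCs), that had been differentiated toward the third pharyngeal pouch endoderm (3PPE) and harvested at day 9. Both groups received Activin A and WNT3A, then retinoic acid, BMP4, the TGF-beta receptor inhibitor SB431542 and a Wnt inhibitor (IWP2 in the labels, IWP2 or IWR1 in the study's methods), and started from cultures on mouse feeder cells. At day 7 the cells took up siRNA with Lipofectamine 3000, which was a negative control siRNA in siControl (3 libraries, genotype labelled WT) and a HOXA3 siRNA in siHOXA3 (3 libraries, genotype labelled HOXA3 knockdown). The comparison asked how inhibition of HOXA3, a homeobox transcription factor of the pharyngeal pouches, changed expression in these cells. All samples came from 1 cell line and a transient siRNA, and the study calls its repeats biologically independent without saying whether they were separate differentiations. The p-values measure only the spread between these libraries.

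Guidance cues were first described in growing axons, where plexins read semaphorins, ROBO receptors read SLIT proteins, and DCC, neogenin (NEO1) and the UNC5 receptors read netrins. Secreted class 3 semaphorins mostly need a neuropilin to hold them on a plexin, whereas membrane semaphorins bind plexins directly. The same proteins act outside the nervous system on cell migration, epithelial shape and vessel growth, and most of them act by changing the actin cytoskeleton and adhesion of the receiving cell.

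The libraries held between 14117150 and 15282307 counts, and expression is given as CPM (counts scaled to a common, TMM-normalized library size). With 0 counts seen, up to 3 counts remain possible, equal to 0.196 to 0.211 CPM in these libraries, for counting error only. HOXA3, the target of the siRNA, had 16.6, 15.8 and 15.4 CPM in siControl replicates 1, 2 and 3 and 10.9, 13.2 and 15.5 CPM in siHOXA3 replicates 1, 2 and 3. The library labelled siHOXA3 replicate 3 lay above siControl replicate 3, so the groups overlapped (log2 fold change -0.27, standard error 0.157, adjusted p = 0.828 by edgeR, and p = 0.2 by a two-sided exact permutation test, which cannot go below 0.1 with 3 against 3). Of 12 markers of pharyngeal pouch endoderm, FGF8 was at 0 in every library, FOXA2, PAX1 and SOX17 had at most 3 counts in any, and 6 had enough counts for a test, and the 12 summed to 972 to 987 CPM in siControl and 983 to 1010 CPM in siHOXA3. All 6 markers of amnion and trophoblast were present, with a summed level of 2614 to 2845 CPM in siControl and 2687 to 2918 CPM in siHOXA3. The 5 markers of pluripotent cells summed to 1270 to 1320 CPM in siControl and 1326 to 1455 CPM in siHOXA3 and those of mesenchyme to 2324 to 2489 and 2415 to 2832 CPM, with PRRX1 at 0. LIN28A gave most of the pluripotent sum, at 1047 CPM as the mean of siControl, while POU5F1 had 5.46 CPM and NANOG at most 4 counts in any library. COL1A1 and COL3A1 gave most of the mesenchyme sum, at 1361 and 933 CPM as means of siControl. PDGFRB had 113 CPM, PDGFRA 8.72 CPM and TWIST1 3.58 CPM by the same measure. CDH1 and EPCAM likewise gave most of the pharyngeal pouch sum, at 661 and 262 CPM. The part of these other cell types in the guidance genes was not tested. FGF8, FOXA2, PAX1 and SOX17 go against the 3PPE label, so the cells are called here the day 9 cultures. In such bulk samples, fewer cells of a type and less RNA per cell cannot be told apart.

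Of the 44 guidance genes, 39 had enough counts for edgeR's filter and 5 did not (ROBO2, ROBO4, PLXNA4, PLXNB3 and SEMA3G). At an adjusted p of 0.05, 0 of these 39 were called by edgeR's quasi-likelihood test over all 16561 genes, where 0.00604% of genes passed. At an unadjusted p under 0.05 there were 2, SLIT3 higher and SEMA3C lower in siHOXA3, which is 5.13% of the members against 6.36% of all genes tested (3.79% higher and 2.57% lower). DESeq2 left none at an adjusted p of 0.05 and limma-voom with sample quality weights left SLIT3.

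**Figure D1:**
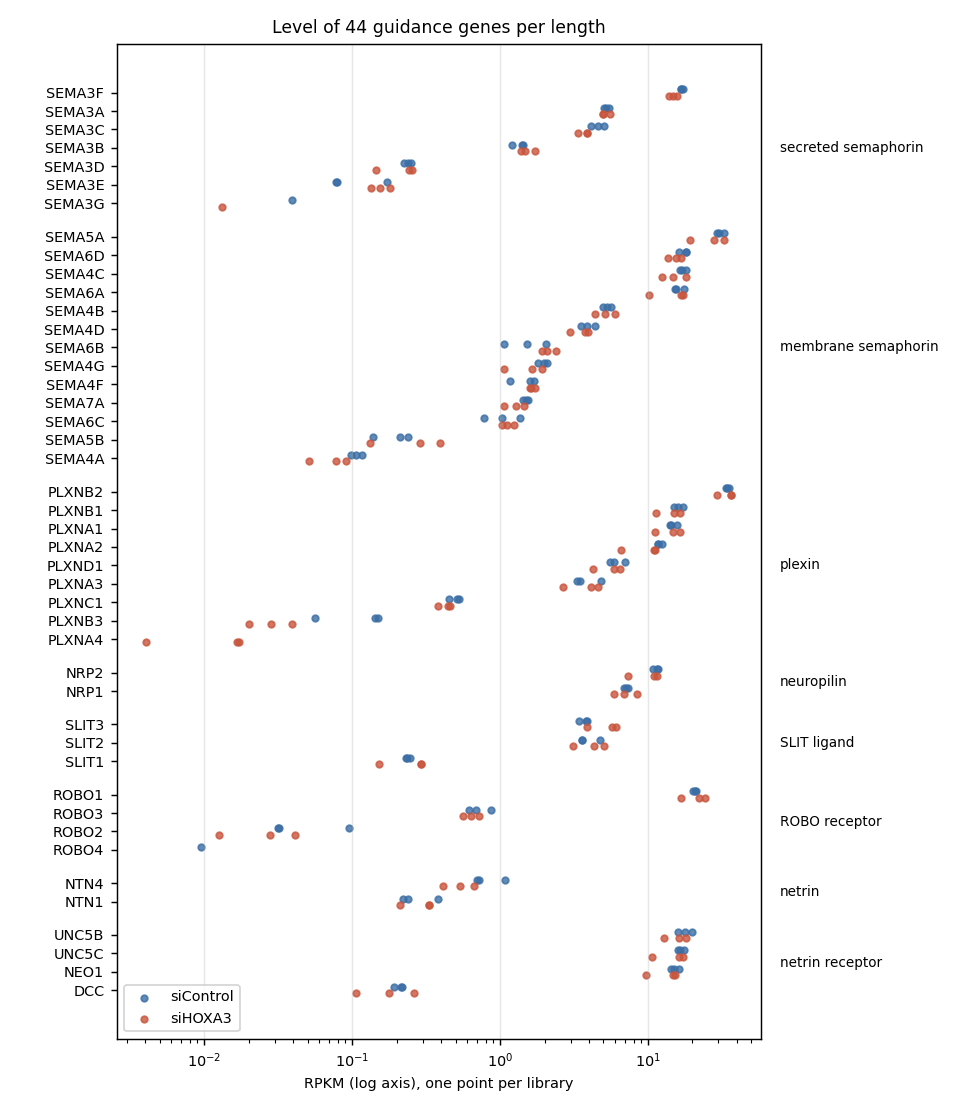
Level of the 44 guidance genes on a log axis as RPKM (CPM per kilobase of exon), 1 point per library, with siControl in blue and siHOXA3 in red, grouped by role and ordered by mean level. Libraries with 0 counts are not drawn. The highest members were PLXNB2, SEMA5A and ROBO1, and the lowest was ROBO4.

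To compare levels between genes, counts were divided by the summed length of each gene's exons (RPKM). By this measure 14 members lay at or above 10 RPKM as the mean of the 6 libraries, 29 at or above 1 RPKM and 15 under 1 RPKM. PLXNB2, a plexin that binds class 4 semaphorins, was the highest member at 34.6 ± 1.02 RPKM in siControl and 34.1 ± 4.00 RPKM in siHOXA3 (SD, n = 3 each). SEMA5A, a membrane semaphorin with thrombospondin repeats, came next at 30.8 ± 1.61 and 26.6 ± 6.79 RPKM, and the SLIT receptor ROBO1 followed at 20.7 ± 0.398 and 21.1 ± 3.94 RPKM (SD, n = 3 each). SEMA5A and ROBO1 were separated by more than the SD of siControl, but in siHOXA3 their means differed by less than the 2 SDs together.

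Cues and the receptors that read them were not at equal levels. The UNC5 receptors and NEO1 had mean levels in siControl of 17.9 (UNC5B), 16.7 (UNC5C) and 15.2 RPKM (NEO1), while the netrins themselves had 0.832 (NTN4) and 0.279 RPKM (NTN1), and DCC, the classical attractive netrin receptor of commissural axons, had 0.209 RPKM. ROBO1 stood at 20.7 RPKM beside 3.95 RPKM for SLIT2 and 3.71 RPKM for SLIT3, its ligands. SEMA3F, a class 3 semaphorin that acts through neuropilin-2, had 16.8 RPKM beside 11.4 RPKM for NRP2. The order of SEMA3F and NRP2 depends on the length used and reverses with the longest transcript as length. Their exons sum to 4826 and 13896 bases, and their longest transcripts have 3802 and 6662 bases. SEMA4C and its receptor PLXNB2 had 17.2 and 34.6 RPKM, and SEMA4D and its receptor PLXNB1 had 3.92 and 16.1 RPKM. SEMA7A, the semaphorin anchored by a lipid tail, had 1.49 RPKM, and PLXNC1, the plexin that binds it, had 0.497 RPKM.

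The genes without enough counts were mostly paralogs of well expressed members. ROBO2 had 8, 24 and 8 counts in the siControl replicates and 10, 7 and 3 counts in the siHOXA3 replicates, far under ROBO1. ROBO4, which is known from vessel endothelium, had 1 count in siControl replicate 1 and 0 in the other libraries. SEMA3G had at most 3 counts in any library. PLXNB3 had 15, 16 and 6 counts in siControl and 4, 3 and 2 counts in siHOXA3, so that all siHOXA3 libraries lay below all siControl libraries, and it shares 18.3% of its stretches of 50 bases with SRPK3, which makes its counts uncertain. PLXNA4, a receptor for SEMA6A, had no count in siControl and 4, 1 and 4 counts in siHOXA3, which is close to the 3 counts that remain possible where 0 are seen. Without a filter on low counts both had an unadjusted p under 0.05 by edgeR and neither passed an adjusted p of 0.05.

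**Figure D2:**
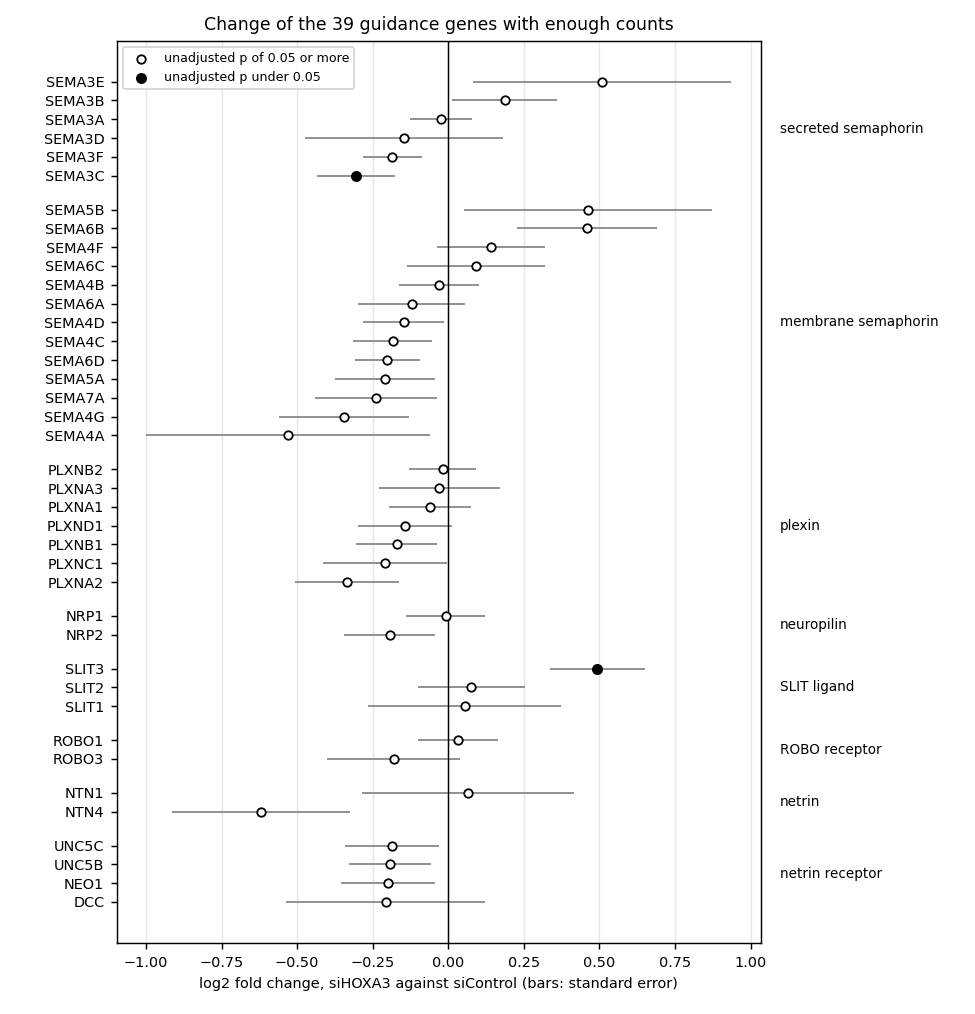
Log2 fold change of siHOXA3 against siControl for the 39 guidance genes with enough counts, by role, with bars for the standard error of the edgeR fit and filled points for an unadjusted p under 0.05. Only SLIT3, higher, and SEMA3C, lower, are filled, and all 7 tested plexins lie left of 0, although PLXNA1, PLXNA3, PLXNB2 and PLXND1 lay right of 0 with limma-voom.

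SLIT3 was the member with the smallest p-value. SLIT proteins are large secreted glycoproteins that repel cells carrying ROBO receptors. SLIT3 (ENSG00000184347, GRCh38 chromosome 5 from 168661733 to 169301129, minus strand) had 55.5, 54.5 and 48.6 CPM in siControl replicates 1, 2 and 3 and 86.4, 54.9 and 81.9 CPM in siHOXA3 replicates 1, 2 and 3. The siHOXA3 replicates 1 and 3 lay well above every siControl library, whereas siHOXA3 replicate 2 lay within the siControl range, so the groups overlapped. HOXA3 itself had 10.9, 13.2 and 15.5 CPM in siHOXA3 replicates 1, 2 and 3. A link of SLIT3 to the HOXA3 level of a library was not tested. The log2 fold change was 0.49 (standard error 0.157, unadjusted p = 0.00945, adjusted p = 0.663 by edgeR), a 1.41-fold difference. Without siHOXA3 replicate 2 it was 0.67 (standard error 0.0876) with an adjusted p of 0.00164 by edgeR, and with limma-voom and sample quality weights 0.62 with an adjusted p of 0.00912. With no filter on low counts the adjusted p was 0.0390 by edgeR. In these settings, in the order given, 24, 67 and 100 of all genes had an adjusted p under 0.05, against 1 in the main analysis. Over all alternatives the adjusted p of SLIT3 ranged from 0.00164 to 0.997. SLIT3 was higher in siHOXA3 under each of the alternatives run, from 0.37 to 0.67 on the log2 scale.

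SLIT2, its closest relative in these cells, had 45.8, 34.6 and 34.6 CPM in siControl and 49.2, 30.4 and 41.7 CPM in siHOXA3. Both groups spread widely and overlapped, with siHOXA3 replicate 2 the lowest of the 6 libraries (log2 fold change 0.08, standard error 0.177, adjusted p = 0.945 by edgeR). Without siHOXA3 replicate 2 the log2 fold change of SLIT2 was 0.24, and without siHOXA3 replicate 1 it was -0.09. SLIT1 was at a low level, from 1.39 to 2.67 CPM over all libraries, with siHOXA3 replicate 2 again the lowest, and it overlaps the read-through gene ARHGAP19-SLIT1 on the same strand.

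SLIT2 and SLIT3 each carry a copy of the microRNA miR-218 inside the gene on the same strand, MIR218-1 in SLIT2 and MIR218-2 in SLIT3, a feature that the choice of members did not use. The copies give the same 5p arm and different 3p arms, and their RefSeq sequences are shown because they are what these cue genes encode in common, with the seed (bases 2 to 8) in capitals. The counts table held no count for MIR218-1 and at most 2 counts in a library for MIR218-2, in a library type that is not made for small RNAs.
hsa-miR-218-5p: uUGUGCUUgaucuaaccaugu
hsa-miR-218-1-3p: aUGGUUCCgucaagcaccaugg
hsa-miR-218-2-3p: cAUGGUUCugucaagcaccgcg

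The promoter windows of SLIT3 and SLIT2 (RefSeq, build GRCh38.p14, 250 bases before to 50 after the gene start) are shown because SLIT3 was the member with the smallest p-value and SLIT2 its measured paralog. HOX proteins bind DNA through a homeodomain that reads a core of TAAT, and with PBX partners some bind TGATNNAT, so both words were searched on both strands, where a match to one may overlap a match to the other. Neither window held TAAT or TGATNNAT. Among the members, 38 of 44 had windows in the table, all but NRP1, NTN1, SEMA3A, SEMA6A, SEMA6B and UNC5B. TAAT was present in 25 of their 64 windows (39.1%), against 50.2% of all 35116 windows of the same length, and TGATNNAT was present in 3 of 64 (4.69%), against 7.40% of all windows.
SLIT3 promoter window, chr5:169301090-169301389, minus strand: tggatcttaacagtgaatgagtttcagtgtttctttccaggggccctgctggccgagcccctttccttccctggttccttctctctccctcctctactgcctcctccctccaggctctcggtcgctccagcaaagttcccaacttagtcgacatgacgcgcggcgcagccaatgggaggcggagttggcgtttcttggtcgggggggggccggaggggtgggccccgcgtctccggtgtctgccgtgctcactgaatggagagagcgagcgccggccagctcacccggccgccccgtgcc
SLIT2 promoter window, chr4:20251655-20251954, plus strand: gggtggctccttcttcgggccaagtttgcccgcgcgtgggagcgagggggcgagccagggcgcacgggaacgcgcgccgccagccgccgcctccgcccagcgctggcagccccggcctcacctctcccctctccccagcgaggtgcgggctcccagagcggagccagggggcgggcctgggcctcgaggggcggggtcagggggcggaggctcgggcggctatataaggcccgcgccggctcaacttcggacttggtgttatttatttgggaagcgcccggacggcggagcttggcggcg

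ROBO1, the main SLIT receptor here, had 220, 229 and 225 CPM in siControl and 242, 182 and 266 CPM in siHOXA3. Its siHOXA3 libraries fell on both sides of the narrow siControl range (log2 fold change 0.03, standard error 0.133, adjusted p = 0.968 by edgeR). Without siHOXA3 replicate 2 both remaining siHOXA3 libraries lay above all siControl libraries, with a log2 fold change of 0.17. ROBO3, a receptor that modulates SLIT signals in commissural axons, had 4.35 to 6.13 CPM in siControl and 3.98 to 5.04 CPM in siHOXA3, and its log2 fold change was -0.18 (standard error 0.220). ROBO1 and ROBO2 lie within 3861 kb on chromosome 3 and ROBO3 and ROBO4 within 33.1 kb on chromosome 11, so that each of these pairs held 1 gene with enough counts and 1 without.

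Of the secreted semaphorins, 6 of 7 were tested, and SEMA3C was the only one with an unadjusted p under 0.05. SEMA3C, which acts through both neuropilins and is needed for the cardiac outflow tract, had 28.8, 31.6 and 25.7 CPM in siControl and 24.3, 24.2 and 21.1 CPM in siHOXA3. All 3 siHOXA3 libraries lay below all 3 siControl libraries (log2 fold change -0.30, standard error 0.128, unadjusted p = 0.0359, adjusted p = 0.748 by edgeR). SEMA3C stayed lower under each alternative run, from -0.38 to -0.23. The unadjusted p of SEMA3C was 0.165 without siControl replicate 2, 0.126 without siHOXA3 replicate 3, 0.0776 without siControl replicate 1, 0.0503 without siHOXA3 replicate 1, and 0.0505 with a correction for length and GC content, where its groups also overlapped.

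SEMA3C (ENSG00000075223, chromosome 7 from 80742538 to 80922359, minus strand) has a pair of annotated start windows in RefSeq, shown because they differ in composition around its 2 starts. The upstream window held 36.0% G and C and 5 matches to TAAT, and the downstream window held 75.7% G and C and 1 match, with the matches on either strand in capitals. Neither held TGATNNAT. These matches describe the letters in the windows and not a bound site, and the counts per gene do not tell which start was used.
SEMA3C upstream promoter window, chr7:80922340-80922639, minus strand: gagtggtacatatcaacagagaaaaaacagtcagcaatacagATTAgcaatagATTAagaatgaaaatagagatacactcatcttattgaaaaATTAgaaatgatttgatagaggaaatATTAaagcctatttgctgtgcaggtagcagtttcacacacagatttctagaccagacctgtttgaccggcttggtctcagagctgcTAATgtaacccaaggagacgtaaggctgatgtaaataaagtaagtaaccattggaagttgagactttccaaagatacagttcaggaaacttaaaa
SEMA3C downstream promoter window, chr7:80919002-80919301, minus strand: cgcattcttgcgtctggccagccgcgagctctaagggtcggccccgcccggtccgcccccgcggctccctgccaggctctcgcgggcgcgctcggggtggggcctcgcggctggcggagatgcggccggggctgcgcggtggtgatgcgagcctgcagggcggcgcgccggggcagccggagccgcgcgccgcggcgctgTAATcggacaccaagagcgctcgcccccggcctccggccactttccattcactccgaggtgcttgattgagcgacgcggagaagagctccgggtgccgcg

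SEMA3F had 83.1, 80.2 and 80.2 CPM in siControl and 71.3, 66.9 and 75.9 CPM in siHOXA3, again with all siHOXA3 libraries below all siControl libraries (log2 fold change -0.19, standard error 0.0969, adjusted p = 0.802 by edgeR). SEMA3A, the founding repellent cue of the class, had 48.5, 51.0 and 47.4 CPM in siControl and 46.7, 46.3 and 51.5 CPM in siHOXA3. The SEMA3A groups overlapped (log2 fold change -0.02, standard error 0.103, adjusted p = 0.970 by edgeR). SEMA3E, which binds PLXND1 without a neuropilin, had 10, 22 and 10 counts in siControl and 19, 23 and 16 counts in siHOXA3, with a log2 fold change of 0.51 and a standard error of 0.427. With a library left out, SEMA3E ranged from 0.31 (without siControl replicate 3) to 0.99 (without siControl replicate 2), and it was 0.32 without siControl replicate 1. SEMA3B ranged from 6.92 to 8.24 CPM in siControl and from 8.02 to 9.97 CPM in siHOXA3, and SEMA3D stayed at or under 2.06 CPM in every library.

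SEMA3A, SEMA3C, SEMA3D and SEMA3E are 4 neighbours on chromosome 7 within 4444 kb, from 80742538 to 85186855. Their levels in siControl were 5.23 and 4.58 RPKM for SEMA3A and SEMA3C and 0.238 and 0.110 RPKM for SEMA3D and SEMA3E, so the cluster held genes far apart in level. Their log2 fold changes were -0.02, -0.30, -0.15 and 0.51 in the same order and had no common direction.

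Among the 13 membrane semaphorins 9 had a log2 fold change below 0 and 4 above, and none had an unadjusted p under 0.05. SEMA5A had 356, 368 and 394 CPM in siControl and 339, 233 and 394 CPM in siHOXA3. Here siHOXA3 replicates 1 and 3 lay at or near the siControl values and siHOXA3 replicate 2 far below (log2 fold change -0.21, standard error 0.165, adjusted p = 0.854 by edgeR). Without siHOXA3 replicate 2 the log2 fold change of SEMA5A was -0.03. SEMA6D, a ligand of PLXNA1, had 140, 155 and 154 CPM in siControl and 132, 116 and 142 CPM in siHOXA3, with a log2 fold change of -0.20 (standard error 0.107).

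SEMA4G had 9.51, 10.4 and 10.9 CPM in siControl and 10.1, 5.57 and 8.64 CPM in siHOXA3, and its groups overlapped (log2 fold change -0.35, standard error 0.214). MRPL43 lies opposite to SEMA4G, and reads of these 2 genes cannot be told apart unless strand was used, which the sources do not say. SEMA4A had 10, 12 and 11 counts in siControl and 9, 8 and 5 counts in siHOXA3, all lower but with a standard error of 0.469 on a log2 fold change of -0.53. SEMA5B had 27, 31 and 18 counts in siControl and 49, 17 and 35 counts in siHOXA3, where siHOXA3 replicate 2 was the lowest library and the other two the highest (log2 fold change 0.46, standard error 0.411). The remaining membrane semaphorins were SEMA4B, SEMA4C, SEMA4D, SEMA4F, SEMA6A, SEMA6B, SEMA6C and SEMA7A, with log2 fold changes from -0.24 (SEMA7A) to 0.46 (SEMA6B) and adjusted p-values of at least 0.791 by edgeR.

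All 7 tested plexins and both neuropilins had a log2 fold change below 0, from -0.33 to -0.01, although PLXNA1, PLXNA3, PLXNB2, PLXND1 and NRP1 were above 0 with limma-voom and without siHOXA3 replicate 2. PLXNA3 and NRP1 were also above 0 with the length and GC correction, at 0.013 and 0.060, while PLXNA2, PLXNB1, PLXNC1 and NRP2 stayed below 0 under each alternative run. None of these receptors had an unadjusted p under 0.05 in the main analysis. PLXNB2 had 258, 244 and 251 CPM in siControl and 263, 214 and 266 CPM in siHOXA3. Its siHOXA3 replicates 1 and 3 were the highest of the 6 libraries and siHOXA3 replicate 2 the lowest (log2 fold change -0.02, standard error 0.111, adjusted p = 0.980 by edgeR). PLXNB1 had 168, 145 and 156 CPM in siControl and 145, 111 and 160 CPM in siHOXA3 (log2 fold change -0.17, standard error 0.134). PLXNA2, a SEMA6A receptor that was singled out after its values were seen, had 173, 161 and 162 CPM in siControl and 151, 90.1 and 153 CPM in siHOXA3. Of the 15 tested receptors only the PLXNA2 groups did not overlap in CPM (log2 fold change -0.33, standard error 0.172, adjusted p = 0.799 by edgeR). This is 6.67% of the tested receptors, against 6.89% of all genes tested that were separated in the same direction. NRP2 joined PLXNA2 with the length and GC correction, where the share of all genes was not counted. The log2 fold change of PLXNA2 was -0.13 without siHOXA3 replicate 2 and -0.28 with the length and GC correction. PLXNA1, PLXNA3, PLXNC1 and PLXND1 had log2 fold changes from -0.21 to -0.03.

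The neuropilins hold class 3 semaphorins and also bind VEGF. NRP2 had 163, 161 and 151 CPM in siControl and 153, 102 and 160 CPM in siHOXA3 (log2 fold change -0.19, standard error 0.151, adjusted p = 0.854 by edgeR). NRP1 had 82.4, 84.9 and 79.1 CPM in siControl and 79.5, 67.8 and 97.6 CPM in siHOXA3, with the siHOXA3 libraries on both sides of the siControl range (log2 fold change -0.01, standard error 0.130). In both genes siHOXA3 replicate 2 was the lowest library.

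Of the netrins, NTN4, which binds laminins in basement membranes, had 67, 44 and 46 counts in siControl and 25, 42 and 32 counts in siHOXA3. This was 4.49, 2.90 and 3.01 CPM against 1.71, 2.79 and 2.25 CPM, with all siHOXA3 libraries lower and siHOXA3 replicate 2 nearest to siControl (log2 fold change -0.62, standard error 0.294, unadjusted p = 0.0585, adjusted p = 0.781 by edgeR). The log2 fold change of NTN4 was -0.39 without siControl replicate 1 and -0.81 without siHOXA3 replicate 2. NTN1 had 21, 23 and 37 counts in siControl and 31, 32 and 19 counts in siHOXA3, and the groups overlapped.

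The 4 netrin receptors had log2 fold changes from -0.21 to -0.19. UNC5B, a repulsive netrin receptor, had 137, 122 and 109 CPM in siControl and 110, 88.0 and 124 CPM in siHOXA3 (standard error 0.135, adjusted p = 0.843 by edgeR). UNC5C had 176, 172 and 188 CPM in siControl and 174, 114 and 183 CPM in siHOXA3 (standard error 0.156, adjusted p = 0.859 by edgeR). For both UNC5 receptors siHOXA3 replicates 1 and 3 lay within the siControl range and replicate 2 below it. In NEO1 and DCC siHOXA3 replicate 2 was again the lowest library, at 78.6 and 1.39 CPM.

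**Figure D3:**
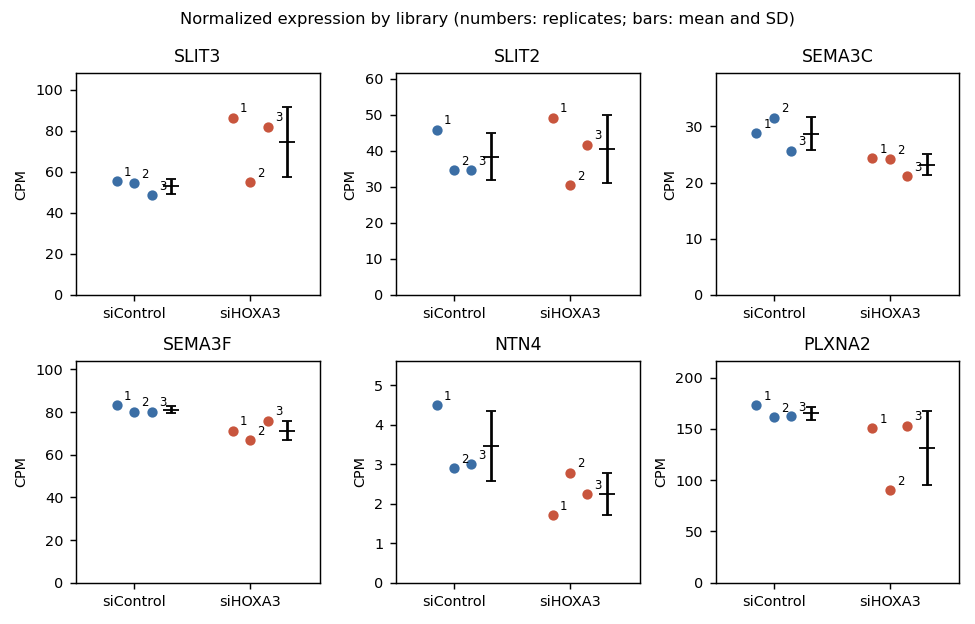
Normalized expression (CPM) of SLIT3, SLIT2, SEMA3C, SEMA3F, NTN4 and PLXNA2 in each of the 6 libraries, numbered by replicate, with siControl in blue and siHOXA3 in red and black bars for the mean and SD of 3 libraries. SLIT3 was 86.4 and 81.9 CPM in siHOXA3 replicates 1 and 3 but 54.9 CPM in replicate 2, while SEMA3C, SEMA3F, NTN4 and PLXNA2 were lower in all 3 siHOXA3 libraries.

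Over the 39 tested members, 28 had a log2 fold change below 0 and 11 above (71.8% below, against 49.6% of all genes tested), with a median of -0.15 beside 0.00 over all genes. The groups did not overlap for 5 members, all lower in siHOXA3 (NTN4, PLXNA2, SEMA3C, SEMA3F and SEMA4A), which is 12.8% of the members against 6.89% of all genes tested in that direction, and 0 members were separated upward against 6.38% of all genes, or 13.3% in either direction. The 24 tested ligands had a median of -0.08 and the 15 tested receptors a median of -0.18.

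This lower level lay mainly in 1 library. In siHOXA3 replicate 2 the members' difference from their siControl mean on the scale log2(CPM + 0.5) had a median of -0.33, while the medians were -0.04 in siHOXA3 replicate 1 and 0.07 in the library labelled siHOXA3 replicate 3, and between -0.04 and 0.03 in the siControl libraries. Of the 39 members, 27 (69.2%) had their lowest value in siHOXA3 replicate 2, against 29.15% of all genes tested. With this library left out, 22 of 41 tested members lay below 0 and 19 above, and the median was -0.02. Without the library labelled siHOXA3 replicate 3 the median was -0.23.

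The members are long genes, with a median exon length of 8470.5 bases against 4537 bases over all genes tested. In siHOXA3 replicate 2, the 3170 tested genes of at least 8000 bases had a median of -0.23 on the same scale and the 2727 genes under 2000 bases a median of 0.20. In the other 5 libraries the medians of these long genes lay between -0.01 and 0.02 and those of the short genes between -0.02 and 0.07. Of the long genes, 57.6% had their lowest value in siHOXA3 replicate 2. When the trend over length and GC content was removed from each library, the median over the members was -0.07, with 25 below 0 and 14 above. The log2 fold change of SLIT3 was then 0.55 with an adjusted p of 0.0883 by edgeR (standard error 0.0891), and its groups no longer overlapped. With this correction 3 members had an unadjusted p under 0.05 by edgeR, SLIT3 higher and PLXNA2 (log2 fold change -0.28) and SEMA3F (-0.24) lower, and NRP2 also became separated, lower in siHOXA3. The share of all genes called with this correction was not counted.

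**Figure D4:**
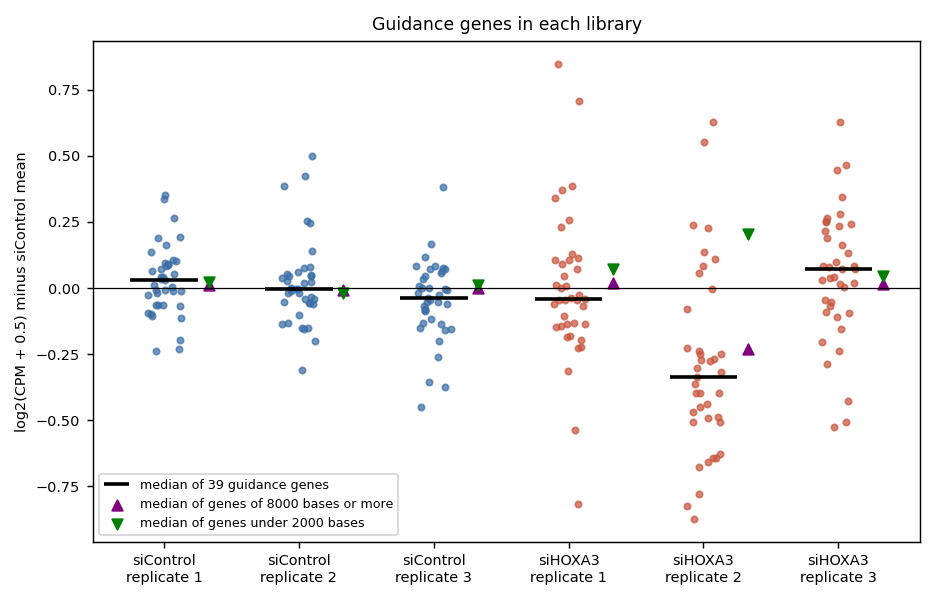
Each point is 1 of the 39 tested guidance genes in 1 library, as log2(CPM + 0.5) minus the siControl mean of that gene, with siControl in blue and siHOXA3 in red. The black line is their median, and the triangles are the medians of all tested genes of 8000 bases or more (purple) and under 2000 bases (green). In siHOXA3 replicate 2 the members sit at a median of -0.33, long genes at -0.23 and short genes at 0.20.

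Genes that work with these cues and receptors but were not members were read from a list of 64 co-receptors, cytoplasmic adaptors and further cues. Of these 58 were tested, 26 with a log2 fold change below 0 and 32 above, and the median was 0.01. None passed an adjusted p of 0.05 by edgeR, by DESeq2 or by limma-voom, and 3 had an unadjusted p under 0.05 by edgeR (5.17%, against 6.36% of all genes tested). VASP, an actin regulator that acts below guidance receptors, had 61.3, 54.5 and 50.5 CPM in siControl and 67.7, 76.7 and 63.8 CPM in siHOXA3, all higher (log2 fold change 0.33, standard error 0.115, adjusted p = 0.720 by edgeR). DPYSL2, a collapsin response mediator that carries the SEMA3A signal to microtubules, had 67.0, 66.1 and 64.6 CPM in siControl and 59.7, 54.0 and 53.7 CPM in siHOXA3, all lower (log2 fold change -0.24, standard error 0.0987, adjusted p = 0.741 by edgeR).

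FLT1, a VEGF receptor that can pair with neuropilins, had 12.9, 11.8 and 10.9 CPM in siControl and 9.05, 8.89 and 5.76 CPM in siHOXA3, again with groups that did not overlap (log2 fold change -0.58, standard error 0.196, adjusted p = 0.710 by edgeR). FLT1 was lower under each alternative run, from -0.69 to -0.40. The 6 endothelial markers include KDR of the same pathway. Their summed level was 114 to 125 CPM in siControl and 80.7 to 121 CPM in siHOXA3. KDR gave most of this sum, at 92.9 CPM as the mean of siControl. CDH5 had 343, 335 and 320 counts in siControl and 343, 250 and 267 counts in siHOXA3. TEK had 76, 43 and 51 counts in siControl and 63, 34 and 31 counts in siHOXA3. PECAM1 and ERG were at 0 in every library, and SOX18 had no more than 1 count in any. Of the 10 neuronal markers 2 had enough counts for a test, and their summed level was 15.6 to 20.7 CPM in siControl and 17.8 to 21.4 CPM in siHOXA3.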

How the data were processed

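The authors deposited 1 table of raw read counts per gene for 6 libraries, whole numbers without normalization. The study's methods name LM-Seq libraries, single reads on a NovaSeq sequencer and DESeq2, and the labels also name a SMARTER mRNA kit. The submitters' processing notes name GRCm38 and mm10, mouse builds, while all 58735 identifiers were human genes found in GENCODE 29 (GRCh38). The aligner, the counting program and the handling of strand are not given in the sources used here.

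The test was the two-sided quasi-likelihood test of edgeR 4.0.16 under R 4.3.3, after filterByExpr and TMM and with robust fitting and p-values adjusted by the Benjamini-Hochberg method over 16561 genes. CPM used TMM-normalized library sizes, and RPKM was CPM per kilobase of the union of GENCODE exons. No 2 libraries agreed within sampling noise. Values by library were given for members with an unadjusted p under 0.05, the 2 highest members of each role by RPKM and the 3 largest log2 fold changes in each direction, and PLXNA2 and members named by count were added after their values were seen. Alternatives were DESeq2 1.42.0, library size only, no filter, a block on replicate number, a filter of 3 or more libraries over 1 CPM, the longest transcript as length, removal of each library in turn, limma-voom (limma 3.58.1) with quality weights per sample, and a length and GC correction (mgcv 1.9.3) added after seeing the data. The members and lists were chosen with earlier results of these data known. Each kind of fit was tested on simulated data. Apart from the planted changes, the simulated libraries shared the same mean profile and the same dispersion. They held no outlying library and no trend over length or GC content, so they cannot show how the fits handle siHOXA3 replicate 2.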

Additional observations from a re-analysis of the deposited data

How the results depend on the processing

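The number of all genes with an adjusted p under 0.05 was 1 by edgeR, 100 when no filter was used, 38 by DESeq2, 67 by weighted limma-voom, and 1 to 24 on removing a library, where 24 came without siHOXA3 replicate 2. Of the guidance genes, 0 passed in the main analysis, 1 (SLIT3) with no filter, 1 (SLIT3) with limma-voom, and 0 to 1 with one library left out, again SLIT3 without siHOXA3 replicate 2. At an unadjusted p under 0.05 the number was 2, and it was 6 with no filter, 4 with limma-voom, 3 with the length and GC correction, and 1 to 6 with one library left out, with 6 without siHOXA3 replicate 2 or 3 and 1 without siControl replicate 1. Members with groups that did not overlap were 5, and 7 to 13 with one library left out, where fewer libraries make a gap easier. The share of all genes without overlap was counted only in the main analysis, at 13.3%, so the range of 7 to 13 has no share beside it. The partner genes with an unadjusted p under 0.05 were 3, 9 with limma-voom, 7 with the length and GC correction, and 1 to 8 with one library left out. The share of all genes at an unadjusted p under 0.05 was counted only in the main analysis, at 6.36%. The counts of members and partner genes under the alternatives therefore have no share of all genes beside them. The median log2 fold change of the members was -0.15, -0.03 with limma-voom, and -0.23 to -0.02 with one library left out, with -0.02 without siHOXA3 replicate 2. HOXA3 stayed between -0.40 and -0.15, and 30 members reached 1 RPKM with the longest transcript as length against 29. The cause of these differences was not tested.

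Over 25 named genes, 303 of 324 values had the sign and the call of the main analysis, 3 newly passed an adjusted p of 0.05 (SLIT3) and 18 changed sign. None of the 25 genes passed in the main analysis, so an unchanged call means only that a gene still did not pass. Several alternatives, such as library size only, also gave values close to those of the main analysis. NRP1 was 0.033 and PLXNB2 0.067 with limma-voom, and NRP1 and SEMA3A were each 0.060 with the length and GC correction, against values just below 0 in the main analysis. With one library left out, NRP1 ranged from -0.16 to 0.11, PLXNB2 from -0.070 to 0.074, SEMA3A from -0.073 to 0.0068, ROBO1 from -0.083 to 0.172, NTN1 from -0.078 to 0.349 and SLIT2 from -0.089 to 0.244. The replicate numbers mark no shared batch in the sources, and the correlation of deviations between libraries of the same number was 0.142, 0.104 and -0.059. A block on replicate number left 4 of all genes at an adjusted p under 0.05 and 4 guidance genes at an unadjusted p under 0.05 (PLXNA2, SEMA3C, SEMA6B and SLIT3).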
